A study of Homo sapiens with 8 samples.

Results

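The genes described here encode axon guidance ligands and receptors: Eph receptors, ephrins, semaphorins, plexins, neuropilins, Slits, Robos, netrins and UNC5 receptors. They were taken from the deposited count table by the patterns of their gene symbols and comprised 65 of its 30434 genes. RNA sequencing had been done on SKBR3, an established human breast cancer line with amplified ERBB2 (HER2). There were 8 libraries, 4 from control SKBR3 cells, labelled WT, and 4 from FOXA1 knockdown SKBR3 cells, which stably carry 3 short hairpin RNAs against FOXA1 brought in by lentivirus. Both were grown in the same serum-containing medium. Whether control cells carried a control virus, how many clones the stable line stands for, and whether the replicates were separate cultures are not given in the sources used here, so p-values measure the spread between these libraries, which may be technical. FOXA1 is a pioneer transcription factor of the luminal mammary lineage, and the study asks how its loss affects HER2-related pathways and luminal differentiation.

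These families were named for steering growing axons and also act in epithelia, where they set cell contact, repulsion and migration. Ephrins are membrane-bound ligands: the A class is anchored by a lipid and the B class spans the membrane, and both bind Eph receptor tyrosine kinases on the neighbouring cell. Semaphorins signal through plexins, with class 3 semaphorins being secreted and most of them needing a neuropilin as co-receptor. Slits bind Robo receptors, and netrins bind DCC and UNC5 receptors.

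FOXA1 (ENSG00000129514.8, chromosome 14, 37589984 to 37596059, minus strand) was examined first because it checks the labels. Its counts were 4180, 4239, 4071 and 4397 in the control libraries against 89, 87, 83 and 92 after knockdown, which left 2.06% of the control level. Library totals ran from 19087878 to 23786684 counts, and 3 counts, used here as the floor of detection, equalled 0.123 to 0.153 CPM (counts per 1000000 of the scaled library total). The groups parted on the first principal component (90.9% of the variance), and the next, with 1.82%, set control replicate 3 apart from the other controls. The line's own markers were present in every library (8 of 8 listed genes, ERBB2, keratins and EPCAM among them), with a summed 19005 to 21152 CPM in control and 11814 to 12720 CPM in knockdown; 3 were higher and 5 lower, ERBB2 among the latter. Lists of other cell types were low: 7 endothelial markers summed to 21.2 to 22.6 CPM in control and 20.1 to 22.6 CPM in knockdown, most of it CDH5 (16.1 and 20.05 CPM) and, in control, VWF (5.21 and 0.844 CPM), and KDR had 0 CPM in control and 0.143 CPM in knockdown. Among 7 fibroblast markers, of which LUM was not in the table, the sums were 5.26 to 6.97 and 10.8 to 11.9 CPM, and among 6 neuronal markers, with STMN2 not in the table, 10.1 to 11.7 and 21.5 to 22.2 CPM, with TUBB3 going from 1.03 to 17.4 CPM, MAP2 from 2.58 to 0.278 CPM and SYT1 from 6.09 to 2.93 CPM. Leukocyte markers summed to 70.5 to 76.8 and 55.8 to 63.4 CPM, nearly all CSF1R, with CD3E not in the table. Of the tested markers, 1 endothelial, 2 fibroblast, 1 neuronal and 1 leukocyte gene were higher, and 1, 1, 2 and 2 were lower. The part of these differences in the results below was not tested, and in bulk RNA fewer cells with a transcript and less of it per cell cannot be told apart.

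Of the 65 guidance genes, 54 were tested after a filter on low counts. At an adjusted p under 0.05 in edgeR's quasi-likelihood test, 28 were higher and 23 lower in knockdown, and 3 (SEMA4F, SEMA4G and UNC5A) did not pass. The background was large: 77.1% of all 16430 tested genes were called, 39.4% higher and 37.7% lower. A change of at least 2-fold was called for 38 guidance genes, 22 higher and 16 lower, which is 70.4% of those tested, where all tested genes gave 28.3% (14.9% higher and 13.4% lower). Levels did not overlap between the groups for 50 of the 54, against 72.0% of all tested genes. The median log2 fold change was 0.25, or 0.25 with the 6 genes at the floor in one group set to their bounds, and 0.02 over all tested genes. A gene that passed the filter only through the group where it is high had to differ, so these counts describe the tested genes and not the families as such. Each of the larger families held strong rises and strong falls side by side. Wherever the 2 groups did not overlap, p was 0.0286 in an exact permutation test (two-sided), which cannot go lower with 4 libraries against 4.

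**Figure D1:**
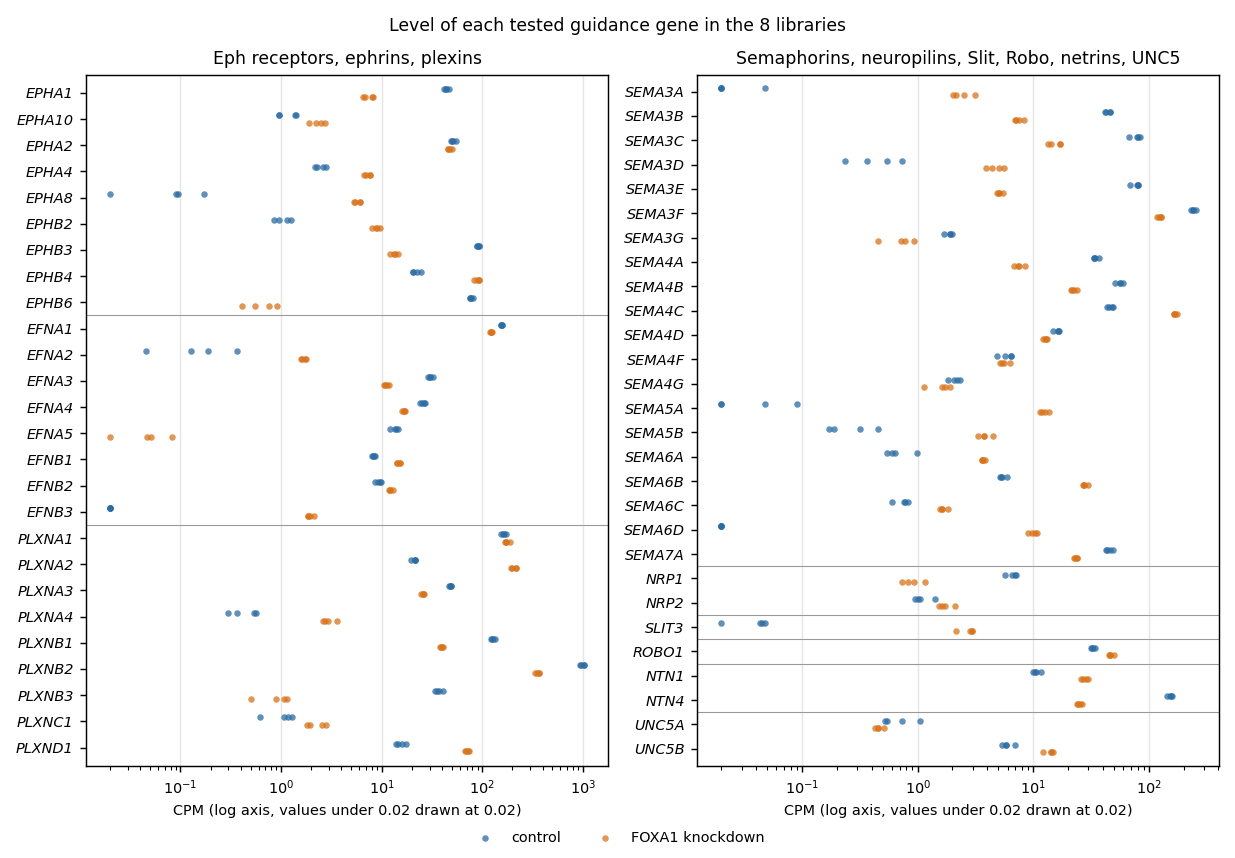
Level of each of the 54 tested guidance genes in CPM on a log axis, with 1 point for each library (blue for 4 control, orange for 4 FOXA1 knockdown libraries) and values under 0.02 CPM drawn at 0.02; lines part the families. The groups overlap for EPHA2, PLXNA1, SEMA4F and SEMA4G and are apart for the other 50 genes.

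Among the Eph receptors, EPHB3, EPHB6 and EPHA1 fell by at least 2-fold, EPHB4, EPHB2, EPHA4 and EPHA8 rose by as much, and EPHA2 differed little. All 9 tested members passed the test, 5 higher and 4 lower. Of all tested genes 77.1% passed it, 39.4% higher and 37.7% lower. A further 3 members, EPHA6, EPHA7 and EPHB1, had at most 7 counts in any library and were not tested. EPHB6, a family member whose kinase domain is inactive (ENSG00000106123.12, chromosome 7, 142855061 to 142871094, plus strand, GENCODE 29 on GRCh38), stood at 75.7, 74.98, 81.0 and 77.3 CPM in control and 0.552, 0.409, 0.763 and 0.924 CPM in knockdown. No knockdown library reached 1 CPM, and 0.857% of the control level was left (log2 fold change -6.88, SE 0.253, adjusted p = 5e-27). EPHB3, an active kinase that binds ephrin-B ligands, went from 91.1 CPM ± 2.73 to 13.4 CPM ± 0.962 (SD over 4 libraries a group; log2 fold change -2.76, SE 0.0565, adjusted p = 2.61e-24 by edgeR). Its control libraries read 92.7, 88.1, 94.0 and 89.6 CPM and its knockdown libraries 13.4, 14.5, 12.2 and 13.6 CPM, so that the groups were far apart. EPHA1 stood at 46.3, 42.2, 44.1 and 43.3 CPM in control and 6.88, 8.18, 6.61 and 7.99 CPM in knockdown (log2 fold change -2.56, SE 0.0816, adjusted p = 1.23e-21). It shares 82 bp of exon with ZYX on the opposite strand, a gene with more counts.

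EPHB4, the ephrin-B2 receptor best known from veins, rose 4.09-fold (ENSG00000196411.10, chromosome 7, 100802565 to 100827521, minus strand). It read 22.3, 20.6, 24.9 and 20.4 CPM in control and 94.1, 89.5, 82.6 and 93.7 CPM in knockdown, without overlap (log2 fold change 2.03, SE 0.0794, adjusted p = 5.86e-19). EPHB2 and EPHA8 are neighbours on chromosome 1, 107 kb apart, and both rose. EPHB2 read 1.14, 1.27, 0.854 and 0.947 CPM in control and 9.64, 8.75, 8.09 and 9.06 CPM in knockdown (log2 fold change 3.07, SE 0.137, adjusted p = 7.83e-17). EPHA8, near the floor in control with 2, 0, 2 and 4 counts, had 144, 130, 106 and 133 counts in knockdown (log2 fold change 5.90, SE 0.676, adjusted p = 1.57e-16). It passed the filter only through knockdown and so had to be higher, while EPHB6 passed only through control. EPHA4, which binds ephrins of both classes, read 2.61, 2.27, 2.18 and 2.80 CPM in control and 6.71, 7.61, 6.97 and 7.76 CPM in knockdown, and every knockdown library lay above every control library (log2 fold change 1.56, SE 0.0973, adjusted p = 5.58e-12). EPHA10, another member without kinase activity, read 0.960, 1.41, 0.948 and 1.38 CPM in control and 1.91, 2.25, 2.49 and 2.73 CPM in knockdown (log2 fold change 0.99, SE 0.189, adjusted p = 4.86e-05). EPHA2, the main receptor of ephrin-A1 in epithelia, read 49.8, 49.1, 54.4 and 51.8 CPM in control and 46.0, 48.4, 45.6 and 49.9 CPM in knockdown. These ranges overlap, the log2 fold change was -0.11 (adjusted p = 0.0381 by edgeR, exact two-sided permutation p = 0.0857), and the call was lost without control replicate 3, with DESeq2 and under several other settings.

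Dividing CPM by the merged exon length (GENCODE 29) allows levels of different genes to be set side by side, though only roughly. That length joins the exons of all annotated transcripts of a gene, and the transcripts used in these cells were not measured. The SDs of the shares cover the spread between libraries and not this uncertainty. On this scale EPHB3 led the Eph receptors in control with 33.4% ± 0.364 of the family's sum, followed by EPHB6 with 24.1% ± 0.385, EPHA2 with 20.5% ± 0.508, EPHA1 with 15.4% ± 0.556 and EPHB4 with 5.67% ± 0.367 (SD, n = 4). In knockdown EPHB4 led with 42.2% ± 1.21 and EPHA2 followed with 34.5% ± 0.905, while EPHB3 held 8.93% ± 0.408, EPHA1 4.72% ± 0.352 and EPHB6 0.376% ± 0.127. The family's sum was 60.2 ± 1.94 CPM per kb in control and 33.1 ± 1.58 CPM per kb in knockdown. EPHA2 therefore took a larger share in knockdown at a similar level of its own, 12.3 against 11.4 CPM per kb.

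Of the 8 ephrin ligands 4 were higher and 4 lower. All 3 ephrin-B genes were higher in knockdown, while 4 of 5 ephrin-A genes were lower and EFNA2 was higher. Over all tested genes, 39.4% were called higher and 37.7% lower. EFNB3 and EFNA2 passed the filter only through knockdown and EFNA5 only through control, so these genes had to differ in the direction seen. EFNA5, whose lipid-anchored product binds several EphA receptors and EPHB2 (ENSG00000184349.13, chromosome 5, 107376889 to 107670895, minus strand), had 318, 303, 257 and 327 counts in control and 0, 2, 1 and 1 in knockdown, at least 101-fold lower against a floor of 3 counts per library (adjusted p = 3.02e-21). Control replicate 3 gave the lowest control value, and the groups stayed far apart. EFNB3 showed the reverse, with 0 counts in every control library and 44, 48, 42 and 40 counts in knockdown, at least 14.4-fold higher (adjusted p = 2.32e-12). EFNA2 had 8, 1, 4 and 3 counts in control and 41, 43, 32 and 34 in knockdown (log2 fold change 3.17, SE 0.526, adjusted p = 2.05e-09). EFNB1 rose from 8.34 CPM ± 0.264 to 14.7 CPM ± 0.526 and EFNB2 from 9.37 CPM ± 0.571 to 12.3 CPM ± 0.506 (SD over 4 libraries a group), log2 fold changes of 0.82 and 0.39.

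EFNA4, EFNA3 and EFNA1 lie in a row on chromosome 1, with gaps of 9.32 kb and 39.9 kb, and all were lower in knockdown. EFNA3 read 30.4, 29.2, 32.5 and 30.3 CPM in control and 10.7, 11.3, 10.53 and 11.8 CPM in knockdown (log2 fold change -1.46, SE 0.0485, adjusted p = 3.19e-17). EFNA4 had a log2 fold change of -0.62 and EFNA1 of -0.34. The 50 tested genes nearest to each of these 3 had a median change (log2) of -0.25. With that shift taken out of the fit, EFNA3 was at -1.21, EFNA4 at -0.37 and EFNA1 at -0.0893, all still called. The same step took EFNB2 up to 0.73 and EFNB1 down to 0.55. EFNA1 remained the leading ephrin in both groups, with 58.6% ± 0.734 of the family's CPM per kb in control and 63.0% ± 0.634 in knockdown (SD over 4 libraries a group). The sum of the family was 105 ± 1.84 CPM per kb in control and 76.5 ± 0.950 in knockdown. EFNA4 and EFNA3 share exons with a read-through transcript of both, which averaged 2 counts in control and 1.5 in knockdown.

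Semaphorins held members that rose and members that fell. Of the 7 class 3 genes, which encode secreted ligands, 5 were lower in knockdown and 2, SEMA3A and SEMA3D, were higher from near the floor. All 6 genes of the transmembrane classes 5 and 6 were at least 2-fold higher, as were 14.9% of all tested genes. SEMA5A and SEMA6D were at or under the floor in every control library. SEMA3A, SEMA3D, SEMA5A, SEMA5B and SEMA6D passed the filter only through knockdown, so they had to differ in that direction. Class 4 was mixed, with SEMA4C higher, SEMA4A, SEMA4B and SEMA4D lower, and SEMA4F and SEMA4G not past the threshold. SEMA7A, the lipid-anchored member, was lower. All 20 genes were tested, and 9 were higher and 9 lower, where 39.4% of all tested genes were called higher and 37.7% lower.

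SEMA3E, the class 3 ligand that binds plexin-D1 without a neuropilin (ENSG00000170381.14, chromosome 7, 83363238 to 83649113, minus strand), stood at 80.1, 81.1, 68.3 and 78.5 CPM in control and 5.52, 4.83, 5.04 and 5.04 CPM in knockdown (log2 fold change -3.91, SE 0.0703, adjusted p = 6.21e-25). SEMA3C read 83.9, 81.4, 67.7 and 79.5 CPM in control and 14.2, 16.9, 17.0 and 13.4 CPM in knockdown (log2 fold change -2.34, SE 0.111, adjusted p = 5.06e-11). Control replicate 3 was the lowest control library for both genes; without it the log2 fold changes were -3.97 and -2.41. SEMA3B, a secreted ligand encoded on the short arm of chromosome 3, went from 44.4 CPM ± 2.46 to 7.48 CPM ± 0.607 (SD over 4 libraries a group; log2 fold change -2.57, SE 0.0697, adjusted p = 9.69e-22 by edgeR). Its control libraries read 46.5, 41.7, 46.4 and 42.8 CPM and its knockdown libraries 7.05, 7.53, 7.02 and 8.32 CPM. The chromosome 3 neighbour SEMA3F, 78.5 kb away and the semaphorin with the highest level per length in control, went from 241 CPM ± 9.98 to 123.0 CPM ± 4.64 (log2 fold change -0.97). SEMA3G was at 1.87 CPM in control and 0.720 CPM in knockdown (log2 fold change -1.36), and it did not pass a test against a 2-fold change. SEMA3A, the classic repellent of sensory axons, had 0, 0, 1 and 0 counts in control and 74, 49, 42 and 55 counts in knockdown, at least 18.04-fold higher (adjusted p = 2.95e-13). SEMA3D had 8, 12, 5 and 17 counts in control and 132, 108, 100 and 85 in knockdown (log2 fold change 3.31, SE 0.351, adjusted p = 6.93e-13). SEMA3E, SEMA3A and SEMA3D follow each other on chromosome 7 with gaps of 307 kb and 503 kb, and the first fell while the others rose; the 50 genes around each had median shifts between -0.20 and -0.13.

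SEMA6D had no counts in any control library and 252, 252, 177 and 211 counts in knockdown, at least 73.0-fold higher (ENSG00000137872.17, chromosome 15, 47184101 to 47774223, plus strand; adjusted p = 1.5e-18). SEMA5A, a transmembrane ligand with thrombospondin repeats (ENSG00000112902.12, chromosome 5, 9035026 to 9546075, minus strand), had 0, 2, 1 and 0 counts in control and 272, 311, 235 and 298 in knockdown, at least 91.8-fold higher (adjusted p = 1.92e-20). Both were thus at or under the floor in every control library and well above it in every knockdown library. SEMA5B had 7, 10, 4 and 4 counts in control and 89, 81, 88 and 82 in knockdown (log2 fold change 3.73, SE 0.316, adjusted p = 1.76e-13). SEMA6B read 5.21, 5.39, 5.98 and 5.16 CPM in control and 27.6, 27.5, 27.0 and 29.5 CPM in knockdown (log2 fold change 2.36, SE 0.0558, adjusted p = 3.27e-20). Of this group it had the highest level in knockdown, and its control libraries were already at 5.16 CPM or more. SEMA6A read 0.549, 0.635, 0.996 and 0.602 CPM in control and 3.61, 3.60, 3.87 and 3.70 CPM in knockdown (log2 fold change 2.40, SE 0.188, adjusted p = 1.14e-11). Its neighbours on chromosome 5 had a median change (log2) of 0.64, and with that taken out SEMA6A was at 1.77. SEMA6C went from 0.739 to 1.67 CPM (log2 fold change 1.17), and it did not pass a test against a 2-fold change.

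SEMA4C, a ligand of plexin-B2, rose 3.64-fold, from 48.4, 43.2, 49.3 and 45.3 CPM in control to 166, 175, 167 and 170.1 CPM in knockdown (log2 fold change 1.86, SE 0.0472, adjusted p = 1.14e-22). SEMA4A read 33.8, 33.2, 37.3 and 34.2 CPM in control and 6.79, 7.49, 7.43 and 8.46 CPM in knockdown (log2 fold change -2.20, SE 0.0745, adjusted p = 6.21e-20). For SEMA4B the control libraries held 56.2, 50.7, 60.4 and 55.9 CPM and the knockdown libraries 22.6, 24.1, 21.3 and 21.5 CPM (log2 fold change -1.31, SE 0.0658, adjusted p = 7.22e-17). Its chromosome 15 neighbours had a median of -0.55, and with that shift taken out SEMA4B was at -0.76. SEMA4D, the ligand of plexin-B1, fell by 0.34 on the log2 scale (adjusted p = 7.53e-05), and the call was lost with the neighbour shift taken out (adjusted p = 0.075). SEMA7A went from 45.1 CPM ± 2.88 to 23.4 CPM ± 0.725 (SD over 4 libraries a group; log2 fold change -0.95). SEMA4F had a log2 fold change of -0.05 (adjusted p = 0.659) and SEMA4G of -0.39 (adjusted p = 0.0501). Of the exon bases of SEMA4G, 22.3% are shared with MRPL43 on the opposite strand, which had 542 counts in control against 46.5 for SEMA4G, so the value of SEMA4G is uncertain. Per length, SEMA3F led the semaphorins in control with 43.0% ± 0.854 of their sum and SEMA4C held 6.51% ± 0.260. In knockdown SEMA4C held 34.1% ± 0.590 and SEMA3F 31.7% ± 0.901 (SD over 4 libraries a group), out of a family sum of 116 ± 2.68 CPM per kb in control and 80.5 ± 1.42 in knockdown.

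**Figure D2:**
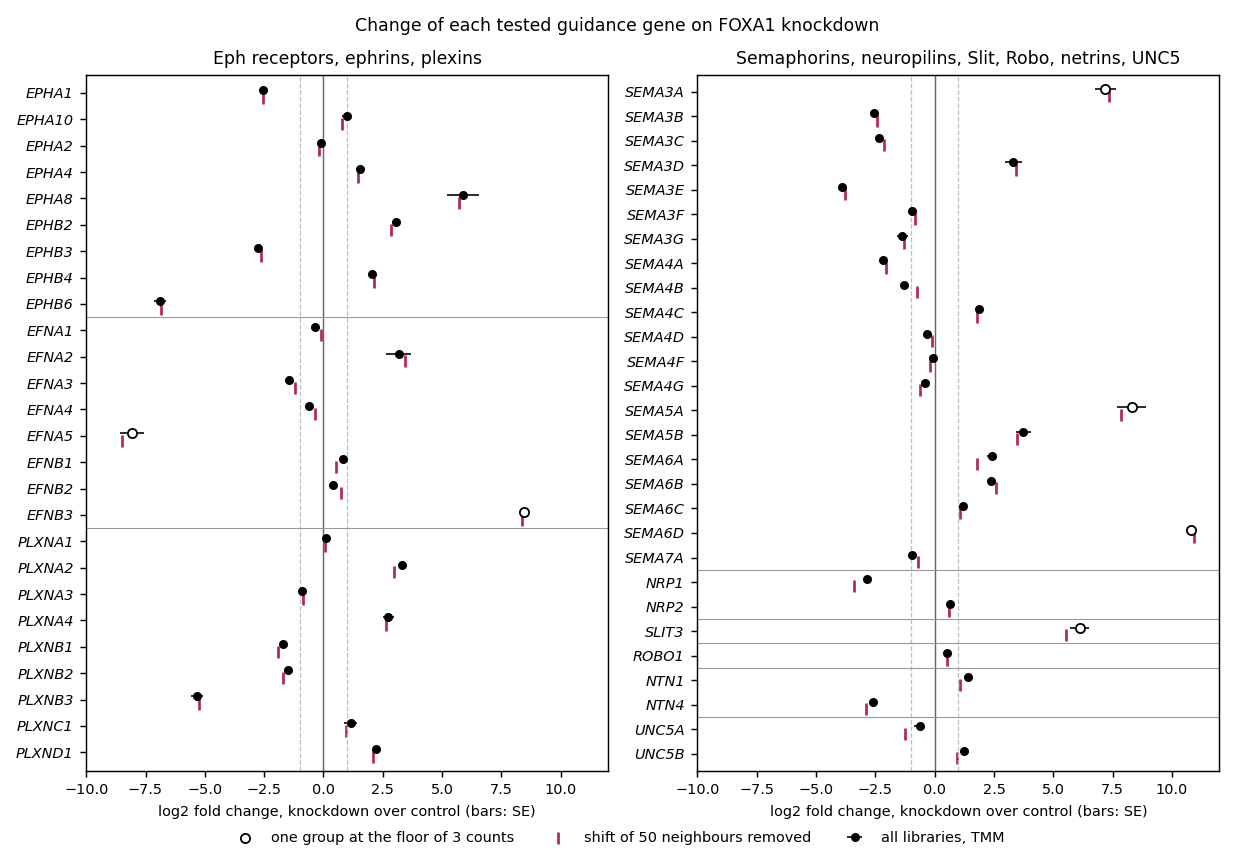
Fitted log2 fold change of each tested guidance gene, knockdown over control, with SE bars (black), and the same with the median change of the 50 nearest tested genes removed (red ticks); open circles mark genes with 3 or fewer counts in every library of one group, whose fitted value gives no bound, and dashed lines mark a 2-fold change. Class 5 and 6 semaphorins lie to the right of 0 and plexin-B genes to the left with either setting.

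The DNA just upstream of the start sites was looked at in the RefSeq promoter table (GRCh38.p14), which gave 87 starts for 56 of the 65 genes. The forkhead core motif that FOXA factors bind was searched as TGTTTAC or TGTTTGC on both strands in the 250 bases before each start. It was found in 1 of the 87 guidance gene windows (1.15%), where 6.09% of all 35114 windows hold it. The windows of the guidance genes had a median GC content of 65.6% and a median of 18 CpG dinucleotides, against 58% and 11 over all windows. Starts of genes at least 2-fold higher in knockdown had a median GC content of 72.8% (23 starts) and those of genes at least 2-fold lower 63% (28 starts). Some genes have several starts with overlapping windows, as EPHB2 and SEMA3B do, so starts are not independent and such genes weigh more. Shown are the window with the motif (SEMA4B, 1 of its 3 starts, plus strand, chr15:90184670-90184919), those of EFNA5 (minus strand, chr5:107670938-107671187) and SEMA5A (minus strand, chr5:9546076-9546325), which are both rich in CpG and changed in opposite directions, and that of EPHB6 (plus strand, chr7:142862506-142862755), which fell and whose window is poor in CpG and lies inside the gene's GENCODE 29 span. Sequences run 5′ to 3′ on the gene's strand in lower case, with the motif in capitals; it starts 53 bases before the SEMA4B start, on the opposite strand, and so reads GTAAACA as printed.
SEMA4B: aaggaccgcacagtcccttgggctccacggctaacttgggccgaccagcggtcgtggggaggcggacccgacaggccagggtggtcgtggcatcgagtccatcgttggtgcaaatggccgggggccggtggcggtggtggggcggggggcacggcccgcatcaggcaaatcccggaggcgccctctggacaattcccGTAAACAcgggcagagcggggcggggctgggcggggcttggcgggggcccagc
EFNA5: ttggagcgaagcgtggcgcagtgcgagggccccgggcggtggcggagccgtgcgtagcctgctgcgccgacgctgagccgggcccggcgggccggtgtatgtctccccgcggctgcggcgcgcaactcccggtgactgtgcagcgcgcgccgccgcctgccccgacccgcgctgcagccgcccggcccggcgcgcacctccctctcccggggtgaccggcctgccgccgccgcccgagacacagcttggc
SEMA5A: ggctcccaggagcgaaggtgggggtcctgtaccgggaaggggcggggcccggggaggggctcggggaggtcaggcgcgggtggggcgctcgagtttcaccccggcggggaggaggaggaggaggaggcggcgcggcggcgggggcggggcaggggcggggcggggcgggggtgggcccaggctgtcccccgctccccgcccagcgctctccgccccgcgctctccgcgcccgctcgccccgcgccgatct
EPHB6: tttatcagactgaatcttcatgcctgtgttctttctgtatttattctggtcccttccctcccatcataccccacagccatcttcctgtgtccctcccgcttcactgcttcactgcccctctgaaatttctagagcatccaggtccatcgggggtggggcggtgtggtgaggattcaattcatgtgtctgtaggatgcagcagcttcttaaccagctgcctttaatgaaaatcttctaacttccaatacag
The windows of EFNA5 and SEMA5A hold 41 and 33 CpG dinucleotides at 79.6% and 82% GC, and that of EPHB6 holds 3 at 48% GC. A match is a stretch of letters and no evidence of binding, and the start used in these cells was not measured.

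Plexins are the large transmembrane receptors of semaphorins. All 9 were tested and called: the 3 plexin-B genes and PLXNA3 were lower in knockdown, and PLXNA1, PLXNA2, PLXNA4, PLXNC1 and PLXND1 were higher. Of all tested genes 77.1% were called, 39.4% higher and 37.7% lower. PLXNA4 passed the filter only through knockdown, so it had to be higher. PLXNB3 (ENSG00000198753.12, chromosome X, 153764196 to 153779346, plus strand) read 37.6, 35.4, 40.8 and 34.3 CPM in control and 0.891, 1.06, 0.509 and 1.16 CPM in knockdown, 2.44% of the control level (log2 fold change -5.33, SE 0.262, adjusted p = 3.05e-22). It shares 1432 bp, or 20.4% of its exon bases, with SRPK3 on the same strand, which averaged 37.5 counts in control. PLXNB2 was the most abundant gene of the set in both groups, at 1018, 939, 1039 and 959.7 CPM in control and 348, 366, 336 and 366 CPM in knockdown (log2 fold change -1.48, SE 0.0462, adjusted p = 1.46e-21). PLXNB1, the receptor of semaphorin 4D, went from 128 CPM ± 5.14 to 39.5 CPM ± 1.32 (SD over 4 libraries a group; log2 fold change -1.69, SE 0.0377, adjusted p = 8.55e-22 by edgeR). Its control libraries read 129, 121, 134 and 127 CPM and its knockdown libraries 41.2, 38.9, 38.1 and 39.7 CPM. Plexin-B genes thus lay between 2.44% and 35.8% of control.

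PLXNA2, a receptor for class 6 semaphorins (ENSG00000076356.7, chromosome 1, 208022242 to 208244320, minus strand), rose 9.80-fold. Its control libraries held 19.7, 21.4, 21.6 and 21.3 CPM and its knockdown libraries 193, 218, 197 and 216 CPM (log2 fold change 3.29, SE 0.0550, adjusted p = 2.37e-26). PLXND1, the receptor of semaphorin 3E, stood at 16.1, 14.6, 17.5 and 13.9 CPM in control and 67.6, 72.8, 69.2 and 74.6 CPM in knockdown (log2 fold change 2.20, SE 0.0811, adjusted p = 6.08e-21). Both rose in every knockdown library by far more than the spread within a group. PLXNA4 had 8, 12, 12 and 7 counts in control and 65, 72, 51 and 78 in knockdown (log2 fold change 2.73, SE 0.236, adjusted p = 2.58e-11). PLXNC1, the semaphorin 7A receptor, had 28, 26, 13 and 25 counts in control and 46, 69, 36 and 56 in knockdown (log2 fold change 1.14, SE 0.276, adjusted p = 3.08e-05), with control replicate 3 the lowest, and it did not pass a test against a 2-fold change. PLXNC1 shares 177 bp of exon with CEP83 on the opposite strand, which averaged 339 counts in control and 451.5 in knockdown. With the neighbour shift taken out PLXNC1 was at 0.93. PLXNA3 went from 48.4 CPM ± 1.05 to 25.6 CPM ± 0.570 (log2 fold change -0.92). PLXNA1 read 164, 152, 172 and 161 CPM in control and 170.2, 174, 171 and 189 CPM in knockdown, overlapping ranges, with a log2 change of 0.12 (adjusted p = 0.0131 by edgeR, exact two-sided permutation p = 0.0857). That call was lost with the neighbour shift taken out (adjusted p = 0.0948). Per length, PLXNB2 held 77.0% ± 0.235 of the plexin sum in control and 51.9% ± 0.519 in knockdown, while PLXNA2 went from 0.864% ± 0.0604 to 15.9% ± 0.442 and PLXND1 from 0.897% ± 0.0562 to 7.77% ± 0.132 (SD over 4 libraries a group). The sum itself was 177 ± 8.28 CPM per kb in control and 93.9 ± 3.98 in knockdown.

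**Figure D3:**
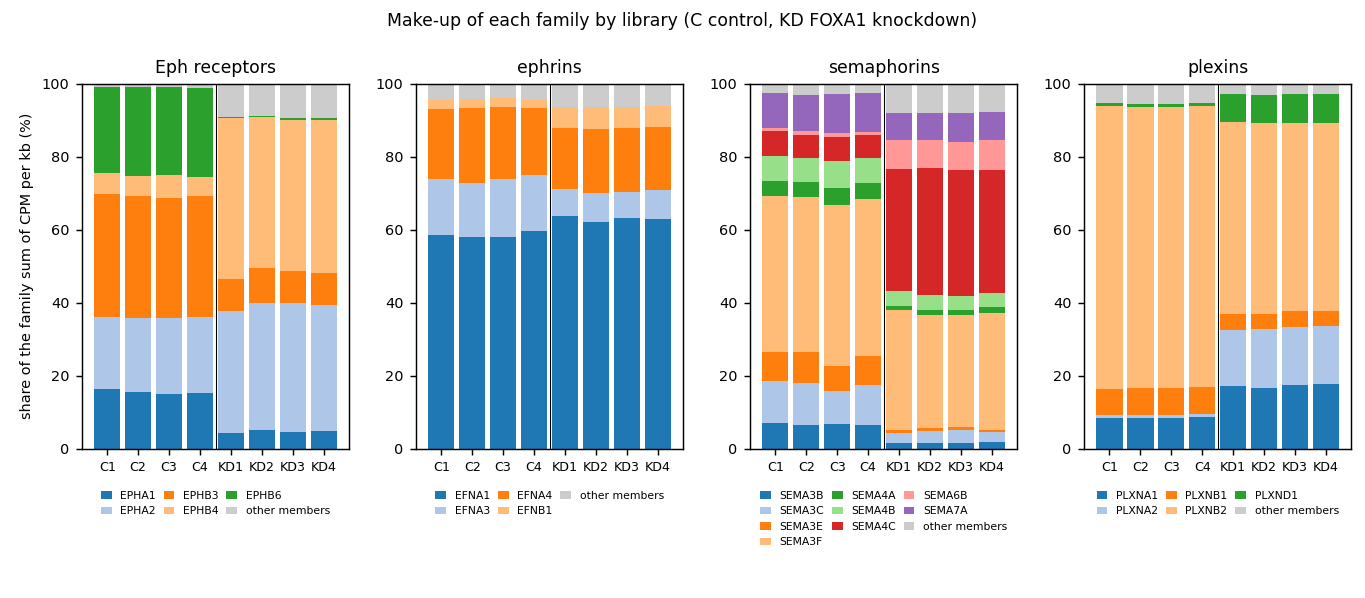
Share of each gene in the sum of CPM per kb of its family, in percent, stacked for each of 4 control (C) and 4 FOXA1 knockdown (KD) libraries; genes under 4% in both groups are pooled in grey. EPHB3, EPHB6 and EPHA1 give way to EPHB4 among Eph receptors and SEMA4C grows among semaphorins, while EFNA1 leads the ephrins and PLXNB2 the plexins in all 8 libraries.

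Neuropilins, the co-receptors of class 3 semaphorins, were low. NRP1 read 6.91, 7.03, 5.69 and 6.58 CPM in control and 0.934, 0.736, 1.17 and 0.832 CPM in knockdown (log2 fold change -2.84, SE 0.156, adjusted p = 5.3e-15). NRP2 had 22, 21, 22 and 33 counts in control and 50, 42, 30 and 35 in knockdown (log2 fold change 0.66, SE 0.163, adjusted p = 0.00445). NRP1 held 87.7% ± 2.32 of their sum per length in control and 38.8% ± 6.46 in knockdown (SD over 4 libraries a group), of a sum that was 0.648 ± 0.0529 CPM per kb in control and 0.205 ± 0.0219 in knockdown.

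Among netrins, laminin-like secreted ligands, NTN4 and NTN1 moved apart. NTN4, which binds laminins in basement membranes, read 156, 153, 144 and 158 CPM in control and 24.4, 26.6, 25.4 and 23.98 CPM in knockdown (ENSG00000074527.13, chromosome 12, 95657807 to 95791152, minus strand; log2 fold change -2.60, SE 0.0427, adjusted p = 3.49e-25). NTN1, the classic ligand of DCC and UNC5 receptors, read 9.88, 10.47, 11.7 and 10.4 CPM in control and 25.98, 28.9, 26.8 and 29.7 CPM in knockdown (log2 fold change 1.39, SE 0.0686, adjusted p = 7.19e-16). NTN1 gave 4.32% ± 0.466 of the netrin sum per length in control and 41.6% ± 1.75 in knockdown, with NTN4 making up nearly all of the rest (SD over 4 libraries a group). NTN3 and NTN5 had at most 9 counts in any library and were not tested. Of the netrin receptors, UNC5B read 5.76, 5.39, 6.97 and 5.77 CPM in control and 14.3, 14.7, 12.3 and 14.4 CPM in knockdown (log2 fold change 1.22, SE 0.0994, adjusted p = 4.19e-12). UNC5A had 23, 12, 11 and 17 counts in control and 10, 11, 9 and 11 in knockdown, not past the threshold (log2 fold change -0.63, adjusted p = 0.0568). With the shift of its chromosome 5 neighbours taken out it was at -1.26 (adjusted p = 0.000465). UNC5C had at most 6 counts and was not tested.

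Slits and Robos other than ROBO1 were low. SLIT3 had 0, 1, 1 and 1 counts in control and 69, 72, 42 and 62 in knockdown, at least 19.97-fold higher (adjusted p = 4.62e-14 by edgeR). It passed the filter only through knockdown, so it had to differ in that direction. SLIT1 and SLIT2 had at most 4 counts in any library. ROBO1, a receptor of Slits, read 32.7, 32.2, 31.6 and 34.2 CPM in control and 46.4, 49.7, 46.0 and 45.6 CPM in knockdown (log2 fold change 0.52, SE 0.0366, adjusted p = 3.01e-10). ROBO2, ROBO3 and ROBO4 had at most 10 counts and were not tested. ROBO4 is the endothelial member, and its highest count in any library was 1.

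Changes of ligands and their known receptors were set side by side for 13 pairs chosen from textbook knowledge after the values had been seen, so these are descriptions. Ligand and receptor had fitted changes of opposite sign in 6 pairs and of the same sign in 7. The ligands SEMA3A, SEMA5A, SEMA6D and SLIT3 passed the filter only through knockdown. Their sign was therefore fixed in advance, and the tally of signs draws on them. For SEMA3E and PLXND1 the ligand went from 9.14 to 0.606 CPM per kb and the receptor from 1.59 to 7.30, which turned the order of the 2 genes over. SEMA4C went from 7.56 to 27.5 CPM per kb and PLXNB2 from 136 to 48.8, and the receptor stayed above the ligand. SEMA5A rose from the floor to 1.03 CPM per kb where PLXNB3 went from 5.29 to 0.129. SEMA3A with NRP1, SEMA3F with NRP2 and SEMA7A with PLXNC1 also had opposite signs. NTN1 and UNC5B rose together, as did SEMA6A and PLXNA2, EFNB2 and EPHB4, and SLIT3 and ROBO1. SEMA4D and PLXNB1 fell together, and so did EFNA1 and EPHA2, the last by -0.11 on the log2 scale with the reservation given above. SEMA6D rose from 0 counts beside a PLXNA1 change of 0.12.

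**Figure D4:**
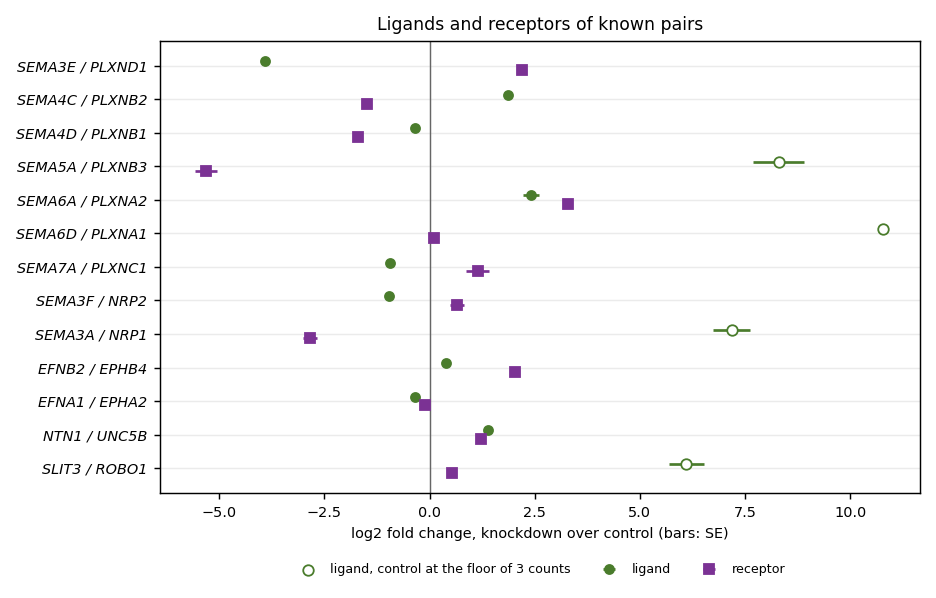
Fitted log2 fold change (knockdown over control, bars are SE) of the ligand (green circles, open where control is at the floor of 3 counts) and the receptor (purple squares) of 13 known pairs. Ligand and receptor lie on opposite sides of 0 in 6 pairs, with SEMA3E and PLXND1, SEMA5A and PLXNB3, and SEMA3A and NRP1 farthest apart. The fitted value of an open circle varies with the prior count and gives no bound. Ligands drawn as open circles passed the filter only through knockdown and so had to lie to the right of 0.

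Other genes of guidance signalling, 52 co-receptors, adhesion molecules and cytoplasmic effectors, served as a wider list, of which 50 were in the table and 43 were tested. Of these, 17 were higher and 20 lower (86.05% called, where all tested genes gave 77.1%). Their median log2 fold change was 0.01 beside 0.02 over the whole table. A change of at least 2-fold was called for 11 higher and 7 lower (41.9%, where all tested genes gave 28.3%). Among the rises, CRMP1, DPYSL2, DPYSL3, NRCAM and TRIM9 passed the filter only through knockdown and so had to differ. The shares therefore describe the tested genes and not the list as such. DPYSL2 and DPYSL3, collapsin response mediators that carry semaphorin signals to microtubules, were among the largest rises: DPYSL2 went from 0.280 CPM ± 0.104 to 23.99 CPM ± 2.42 (SD over 4 libraries a group; log2 fold change 6.38, SE 0.290, adjusted p = 1.9e-22 by edgeR), and DPYSL3 had 0, 2, 0 and 3 counts in control and 504, 575, 457 and 504 in knockdown, at least 168-fold higher. NRCAM, an adhesion molecule that can partner neuropilins, had 0, 2, 5 and 0 counts in control and 1011, 1180, 969 and 980 in knockdown (log2 fold change 9.09, SE 0.889, adjusted p = 1.03e-17). PTK7, a catalytically inactive receptor that interacts with plexins, had 45, 42, 41 and 39 counts in control and 798, 816, 655 and 743 in knockdown (log2 fold change 4.15). The largest falls were in RND1, whose product binds plexins, from 21.8 CPM ± 1.61 to 0.787 CPM ± 0.297 (SD over 4 libraries a group; log2 fold change -4.77, SE 0.238, adjusted p = 1.06e-20 by edgeR), and in its relative RND3, from 28.7 CPM ± 1.94 to 1.51 CPM ± 0.114 (log2 fold change -4.24). SRGAP3 and SRGAP1, which act downstream of Robo receptors, had log2 fold changes of -1.82 and -1.31, while SRGAP2 of the same family was at 1.13. The netrin receptor NEO1 had a log2 fold change of -0.30, and DCC did not pass the filter on low counts. With the shift of its chromosome 15 neighbours taken out, NEO1 was at -0.038 and no longer called (adjusted p = 0.448 by edgeR).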

How the data were processed

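RNA was extracted with Trizol and sequenced as paired-end mRNA libraries, per the labels' protocols. The authors deposited whole read counts per gene for 8 libraries under versioned Ensembl identifiers with symbols. The submitters' processing notes name FastQC, Salmon 1.9, DESeq2 3.16 and hg38, without their roles; whether the counts are rounded estimates, the annotation release and the use of strand are not given in the sources used here, so reads of overlapping genes may mix. Positions and exon lengths come from GENCODE 29 (GRCh38), which matched 96.46% of identifiers. Groups were taken from sample titles, and columns were matched by name.

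Counts were tested with edgeR 4.0.16 in R 4.3.3: filterByExpr (minimum 10 counts, total 15), TMM scaling, robust quasi-likelihood test, Benjamini-Hochberg over all 16430 genes, threshold 0.05. Every adjusted p here is from that test unless another is named. CPM uses TMM-scaled totals. SEs come from log2 CPM with 0.5 added to each count. For genes at or under 3 counts in all libraries of 1 group, folds are bounds against those 3 counts, and this floor covers counting error only. Members and lists were chosen with earlier results of these data known. By the naming rule, members got values by library when called at 2-fold or more with a mean of at least 50 counts in 1 group; for the others such values were added after being seen. Of the other guidance genes, the 4 largest rises and 4 largest falls by the same call and count are named, with SRGAP2, NEO1 and DCC added after their values were seen. Replicate pairs differed beyond counting noise (chi-square per degree of freedom from 2.32 to 7.65), so each library counts once. Alternatives were other scalings, filters, DESeq2 1.42.0, limma 3.58.1 voom, a replicate block, stricter thresholds, removal of the neighbour shift and leaving out each library.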

Additional observations from a re-analysis of the deposited data

Results flagged for a closer look

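Single libraries far from the rest of their group were sought with Dixon's ratio (gap to the next library over the whole range) at its 95% critical value, in 63 groups of 4. Chance gives about 3.15 such groups, and 2 were found. PLXNA2 was low in control replicate 1, at 19.7 CPM against 21.3 to 21.6 CPM in the other controls (ratio 0.854). SLIT3 was low in knockdown replicate 3, at 2.14 CPM against 2.86 to 2.95 CPM (ratio 0.900). No cause was tested for either.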

How the results depend on the processing

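With all libraries 28 guidance genes were called higher, 23 lower and 38 at 2-fold or more; leaving out each library in turn gave 27 to 28, 22 to 24 and 37 to 39, and control replicate 3, which stood apart, was among those left out. None of the guidance genes named by library changed sign under any alternative run. Testing only genes that averaged 50 or more counts dropped 14 guidance genes from the fit and left 17 called higher. A test against a 2-fold change left 15 guidance genes lower, 11 other guidance genes higher and 6 lower, and 3863 genes over the whole table against 12675. Of the guidance genes called at 2-fold or more, PLXNC1, SEMA6C and SEMA3G did not pass that test. Their log2 fold changes were 1.14, 1.17 and -1.36, and their adjusted p in edgeR's test against a 2-fold change 0.368, 0.292 and 0.0646. Over 20 alternatives the EPHA2 call was lost in 11 and the PLXNA1 call in 5. SEMA4F, not called, changed sign with upper-quartile scaling and with library totals alone. Removing the neighbour shift lost the calls of PLXNA1 and SEMA4D and gained those of SEMA4G and UNC5A. Correlations of deviations ran from -0.035 to 0.168 between libraries of the same replicate number and from -0.119 to 0.074 between different numbers. Whether the replicate number pairs the libraries is not settled by these values. A replicate block gave 28 higher and 22 lower, with EPHA2 the call lost. The filter on low counts kept out 11 guidance genes with at most 10 counts in every library; without it 31 were called higher and 25 lower, with EPHA6, ROBO3 and SLIT2 added as higher and NTN3 and UNC5C as lower (adjusted p from 0.00139 to 0.0319).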
